A study of Mus musculus with 36 samples.

Results

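The epidermal growth factor (EGF) family is described here through 10 genes, chosen by name, with earlier results of these data known, among the 45232 genes in the deposited tables. They are the ligand genes Areg (amphiregulin), Ereg (epiregulin), Hbegf (heparin-binding EGF-like growth factor), Tgfa (transforming growth factor alpha), Btc (betacellulin), Epgn (epigen) and Egf, and the receptor genes Egfr, Erbb2 and Erbb3. Of the 10 genes, 9 had enough counts to be tested, and Ereg did not.

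The material was RNA of mouse prostate organoids grown from primary cells; organoids are epithelial cultures that form small hollow bodies. The cells carried 1 of 4 constructs in the inducible vector pCW: an empty control (EV, which the labels call "empty vehicle"), FOXA1 in its wild-type form (WT), or 1 of its variants FE255del or R219S. This forkhead protein, a transcription factor of luminal prostate cells, was encoded together with the fluorescent protein DsRED, with a 2A peptide between them. Each construct was sampled at days 0, 1 and 11, so that the 12 groups are EV, WT, FE255del and R219S at each of those days, with 3 libraries per group. All groups share the mouse cells, the vector and the protocol with 500 ng/mL doxycycline; that day 0 is the state without it rests on data names alone. Sorted DsRED+ cells were seeded in triplicate for each construct, so p-values measure the spread between cultures of 1 sorted population, and a difference between constructs cannot be told apart from a difference between the infected populations.

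EGF family ligands are made as membrane-anchored precursors that metalloproteases such as ADAM17 and ADAM10 cut free. A bound ligand joins receptors into pairs: EGFR binds all 7 ligands, ERBB2 has no known ligand of its own and serves as a partner, and ERBB3, a poor kinase that binds neuregulins, recruits PI3-kinase when paired. The pairs feed the RAS-ERK and PI3K-AKT relays, and ERK in turn raises its own brakes, such as the Sprouty proteins and the phosphatase DUSP6. In the prostate the family supports growth of the epithelium, EGFR is known as a receptor of basal cells, and EGF is a usual addition to organoid medium; the medium used here is not given in the sources used here.

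Upstream sequence helps to place the genes. Areg, Ereg, Epgn and Btc are neighbours on chromosome 5 (GRCm38, GENCODE M21), from position 91027464 to 91402994, a span of 376 kb that holds no other protein-coding gene in that annotation. Epgn, Ereg and Areg lie on the plus strand within 121 kb, and Btc lies on the minus strand. The RefSeq windows (GRCm38.p6) of 3 genes are shown, Areg and Epgn because these neighbours on 1 strand had the widest ranges of the ligands, and Egfr because it has the widest range of the 3 receptors. They are chr5:91139349-91139598 (Areg), chr5:91027267-91027463 (Epgn) and chr11:16751953-16752202 (Egfr), all on the plus strand and ending just before the annotated start of the gene. Capitals mark TGACGTCA, the cAMP response element, and the motif of the usual core promoter box, TATAAA.
Areg: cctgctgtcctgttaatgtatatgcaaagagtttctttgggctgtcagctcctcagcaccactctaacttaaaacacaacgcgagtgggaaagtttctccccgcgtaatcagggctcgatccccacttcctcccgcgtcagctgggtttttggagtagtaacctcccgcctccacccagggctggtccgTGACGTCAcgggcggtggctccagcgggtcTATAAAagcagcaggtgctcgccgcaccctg
Epgn: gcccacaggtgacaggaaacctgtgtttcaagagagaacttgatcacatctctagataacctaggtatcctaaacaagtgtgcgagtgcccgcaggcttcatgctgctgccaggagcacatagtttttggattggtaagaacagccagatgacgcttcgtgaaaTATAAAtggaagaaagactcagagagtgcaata
Egfr: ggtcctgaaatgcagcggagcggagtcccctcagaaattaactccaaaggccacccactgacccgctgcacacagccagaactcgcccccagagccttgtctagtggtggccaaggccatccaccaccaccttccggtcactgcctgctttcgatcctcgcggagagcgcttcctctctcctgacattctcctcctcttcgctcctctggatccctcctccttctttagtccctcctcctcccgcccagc

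The Areg window holds TGACGTCA with its first base 61 bases before the start and TATAAA with its first base 31 bases before it. In the Epgn window the first base of TATAAA lies 33 bases before the GENCODE start and 86 bases before the RefSeq start. The Epgn stretch shown was cut to 197 bases to end before the GENCODE start, while the shares below are for 250 bases. Neither motif is in the Egfr window. On either strand, 1.55% of 32851 mouse windows of 250 bases hold TGACGTCA and 12.4% hold TATAAA; both motifs were searched after these sequences had been seen. The forkhead motif TGTTTNC (17.8% of windows), the AP-1 motif TGANTCA (6.75%) and the TEAD motif GGAATG (12.6%) have no match in these 3 windows. Of the 10 genes, 7 had a window, and of the other 4 with one, Egf holds a forkhead motif in both of its windows and Erbb2 holds GGAATG. A match is a run of letters and not a shown binding site.

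The 36 libraries held 61476938 to 102385337 counts, and 18176 genes were tested with edgeR's quasi-likelihood test; every adjusted p below is from it, with Benjamini-Hochberg adjustment over those genes, and "passed" means an adjusted p under 0.05. Levels are in CPM, that is counts relative to the library total, after TMM scaling. Foxa1 gives a partial check of the labels. Its counts do not separate the construct from the cells' own gene, nor WT from its variants. It lay at 222 to 237 CPM in EV at days 0 and 1. At day 0 WT already lay above the EV libraries, at 253 to 259 CPM, without passing (log2 0.14, adjusted p = 0.0896). FE255del, at 230 to 237 CPM, and R219S, at 222 to 235 CPM, overlapped EV on that day. At day 1 it lay at 410 to 419 CPM in WT, 291 to 344 in FE255del and 303 to 312 in R219S. None of these overlapped EV. At day 11 the gap was smaller: EV lay at 217 to 241 CPM, WT at 253 to 280, FE255del at 266 to 316 and R219S at 242 to 301 (log2 0.22, 0.36 and 0.22 against EV, adjusted p = 0.00269, 6.73e-06 and 0.00362). The change of Foxa1 in WT from day 0 to day 11 did not pass beside that of EV (log2 0.08, adjusted p = 0.584). The epithelial markers Epcam and Cdh1 were high in all libraries, and the summed basal list (Krt5, Krt14, Trp63, Krt15 and Itga6) ran from 1656 to 11214 CPM. Of the lists for other cells, fibroblast and smooth muscle genes summed to at most 79.96 CPM, while blood, endothelial and neuroendocrine genes each summed to at most 8.86 CPM. In such bulk libraries, fewer cells of a type and less RNA per cell cannot be told apart.

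To compare levels between genes, CPM were divided by the length of all exons of each gene in kilobases (RPKM). By median over the 36 libraries the receptors Erbb2 and Erbb3 led with 34.0 and 27.4 RPKM, followed by Areg with 12.7, Tgfa with 10.3, Egfr with 8.996 and Hbegf with 6.18 RPKM. Btc had 3.26 RPKM and Epgn 1.64 RPKM, and Egf itself only 0.0972 RPKM. Ereg had 14 counts in all, spread over 6 of the 36 libraries, with at most 4 counts in a library. The order across groups also differed: the highest group mean of CPM was 26.6 times the lowest for Epgn, 10.5 times for Areg, 6.14 times for Hbegf and 4.12 times for Egfr, but only 1.98 times for Erbb2 and 1.76 times for Erbb3. The most abundant receptors were thus the steadiest members, and the ligands of the chromosome 5 group included the most variable ones.

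**Figure D1:**
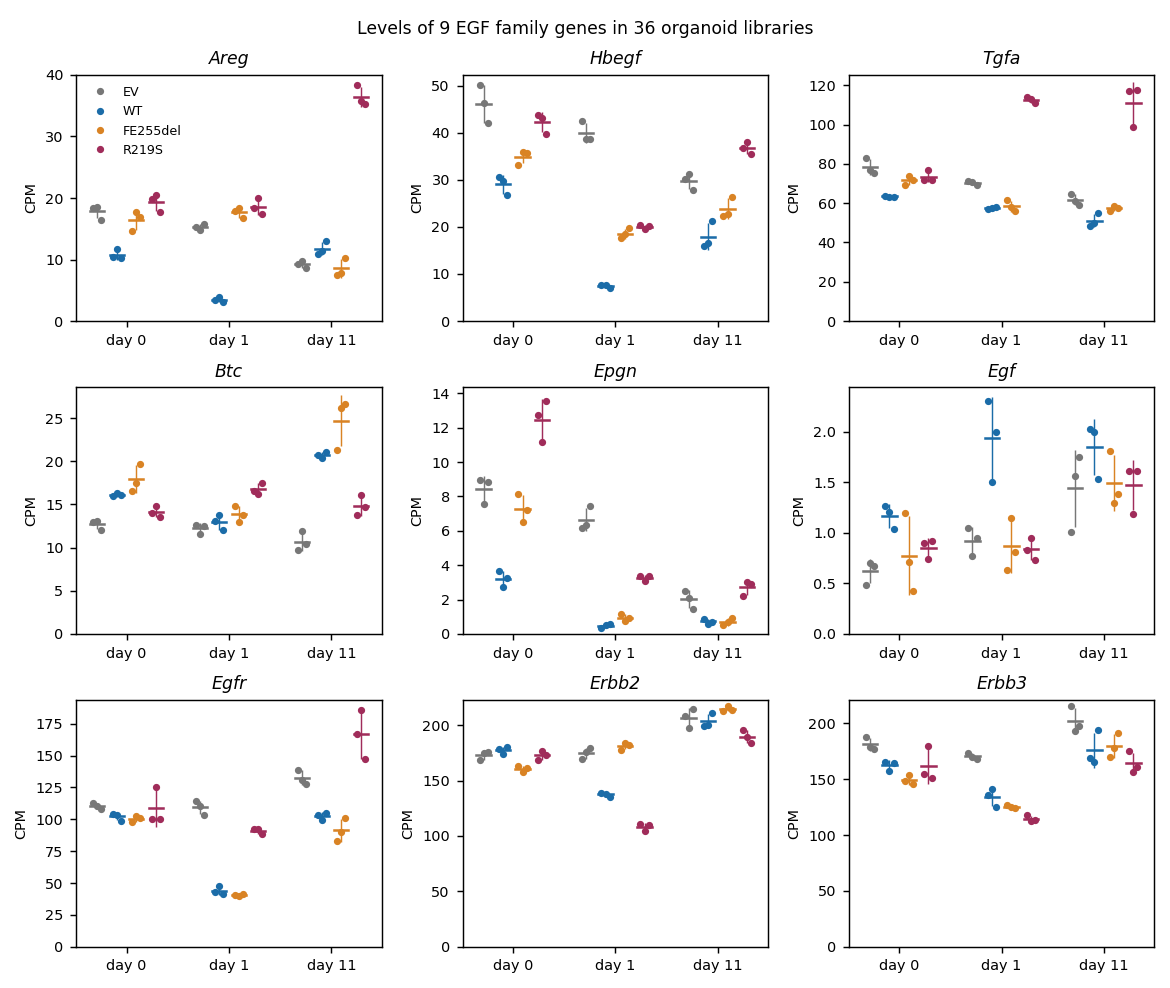
Level in CPM (vertical axis, from 0) of 9 EGF family genes at days 0, 1 and 11; each point is 1 library, the short line is the mean of 3 libraries and the bar is the SD. Areg, Hbegf, Epgn and Egfr are low in WT at day 1, and Areg and Tgfa are highest in R219S at day 11 or at both later days.

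Areg, whose product binds EGFR, was low in WT at day 1 and high in R219S at day 11. In EV its 3 libraries held 18.4, 18.5 and 16.5 CPM at day 0, then 15.2, 14.8 and 15.7 CPM at day 1, and 9.21, 9.75 and 8.61 CPM at day 11. WT libraries held 10.4, 11.6 and 10.2 CPM at day 0, 3.46, 3.85 and 3.14 CPM at day 1, and 10.9, 11.5 and 13.01 CPM at day 11. The WT libraries of day 1 were the 3 lowest of all 36, and those of WT at day 0 already lay below every EV library of that day.

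Neither variant showed the low Areg of WT at day 1. FE255del libraries held 14.7, 17.8 and 16.8 CPM at day 0, 17.9, 18.4 and 16.7 CPM at day 1, and 7.51, 7.88 and 10.3 CPM at day 11. R219S libraries held 19.8, 20.5 and 17.8 CPM at day 0, 18.4, 20.04 and 17.3 CPM at day 1, and 38.3, 35.8 and 35.2 CPM at day 11. The 3 R219S libraries of day 11 were the highest of all 36.

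Against EV of the same day, Areg in WT was 4.38-fold lower at day 1 (log2 difference -2.13, SE 0.10, adjusted p = 3.72e-19) and slightly higher at day 11 (log2 difference 0.36, SE 0.09, adjusted p = 0.00236). In R219S it was 3.96-fold higher at day 11 (log2 difference 1.99, SE 0.09, adjusted p = 2.99e-18). At day 1 the variants lay just above EV, with log2 differences of 0.21 for FE255del (adjusted p = 0.0492) and 0.28 for R219S (adjusted p = 0.00927); the first call was lost when any of 5 single libraries was left out (adjusted p up to 0.147), and the second without R219S day 1 replicate 2 (0.0672). Because WT was already low at day 0, the change since day 0 was also set beside that of EV: it was lower in WT at day 1 (log2 -1.400, adjusted p = 1.48e-10), but higher at day 11 by 1.09 in WT and by 1.87 in R219S (adjusted p = 9.9e-08 and 3.24e-13). These comparisons all use the same EV libraries.

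Hbegf, which encodes a ligand of EGFR and ERBB4 that binds heparan sulfate, was low at day 1 with all 3 FOXA1 constructs. EV libraries held 50.1, 46.3 and 42.1 CPM at day 0, 42.5, 38.6 and 38.7 CPM at day 1, and 30.1, 31.3 and 27.9 CPM at day 11. At day 1 WT held 7.75, 7.75 and 7.07 CPM, FE255del 17.6, 18.5 and 19.7 CPM, and R219S 20.3, 19.5 and 20.3 CPM. All 9 of these libraries lay below the 3 EV libraries of that day, with WT lowest and the variants near each other.

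The difference from EV at day 1 was 5.31-fold in WT (log2 -2.41, SE 0.09, adjusted p = 1.25e-22), 2.15-fold in FE255del (log2 -1.10, SE 0.08, adjusted p = 5e-14) and 1.99-fold in R219S (log2 -0.99, SE 0.08, adjusted p = 8.33e-13). By day 11 the constructs had parted. WT held 16.0, 16.5 and 21.2 CPM and FE255del 22.4, 22.7 and 26.4 CPM, both below EV (log2 -0.73 and -0.32, adjusted p = 2.4e-09 and 0.00119), whereas R219S held 36.7, 38.0 and 35.5 CPM, above EV (log2 0.31, adjusted p = 0.00236). WT and FE255del were also lower than EV at day 0 (log2 -0.67 and -0.40, adjusted p = 3.27e-08 and 0.000262), and their change since day 0 beside that of EV did not pass at day 11 (log2 -0.06 and 0.08).

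Tgfa, an EGFR ligand and the second most abundant one here per length, was higher than in EV with R219S at days 1 and 11. EV libraries held 71.1, 70.7 and 69.1 CPM at day 1 and 64.7, 61.2 and 59.1 CPM at day 11. R219S held 114, 113 and 111 CPM at day 1 and 117, 98.7 and 118 CPM at day 11, above every library of the other groups. The difference from EV was 0.68 at day 1 and 0.85 at day 11 on the log2 scale (SE 0.05 for both, adjusted p = 2.38e-13 and 2.88e-15), and the day 0 difference did not pass (log2 -0.09, adjusted p = 0.231).

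WT held less Tgfa than EV on each day, by -0.30, -0.29 and -0.27 on the log2 scale at days 0, 1 and 11, and its change since day 0 did not differ detectably from that of EV (0.01 and 0.03, adjusted p = 0.924 and 0.851). FE255del passed as lower at day 1 (log2 -0.27, adjusted p = 4.08e-05); at days 0 and 11 it differed by -0.13 and -0.10 (adjusted p = 0.0795 and 0.115). The direct test of R219S against WT gave log2 differences of 0.97 at day 1 and 1.12 at day 11 (adjusted p = 1.35e-17 and 7.54e-19).

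Btc, a ligand of EGFR and ERBB4, was higher than EV at day 11 with each FOXA1 construct. EV libraries held 9.74, 11.9 and 10.4 CPM of Btc at day 11, WT 20.8, 20.4 and 21.02 CPM, FE255del 21.3, 26.2 and 26.6 CPM, and R219S 13.7, 16.1 and 14.7 CPM. All FOXA1 libraries lay above EV, and those of WT and FE255del above those of R219S. Against EV the differences were 1.94-fold in WT (log2 0.96, SE 0.08, adjusted p = 6.32e-12), 2.31-fold in FE255del (log2 1.21, SE 0.08, adjusted p = 1.49e-14) and 1.39-fold in R219S (log2 0.48, SE 0.08, adjusted p = 1.47e-05). At day 1 Btc passed in R219S (log2 0.46, adjusted p = 1.25e-05) but not in WT or FE255del (log2 0.08 and 0.18, adjusted p = 0.409 and 0.058), and at day 0 it was higher in WT and FE255del (log2 0.35 and 0.50).

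Epgn, a low-affinity EGFR ligand, had the widest range. EV libraries held 8.95, 7.56 and 8.82 CPM at day 0, 6.18, 6.32 and 7.41 CPM at day 1, and 2.52, 2.09 and 1.46 CPM at day 11. At day 1 WT held 0.348, 0.491 and 0.566 CPM, FE255del 1.16, 0.751 and 0.928 CPM, and R219S 3.39, 3.10 and 3.35 CPM. The 4 constructs formed 4 separate levels at that time, and the lowest WT library held 28 counts of Epgn.

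Against EV at day 1, Epgn was 14.2-fold lower in WT (log2 -3.83, SE 0.21, adjusted p = 1.49e-17), 7.04-fold lower in FE255del (log2 -2.82, SE 0.19, adjusted p = 9.53e-15) and 2.03-fold lower in R219S (log2 -1.02, SE 0.17, adjusted p = 4.7e-06). R219S stood above EV at day 0, with 12.7, 11.1 and 13.5 CPM (log2 0.56, adjusted p = 0.0117, lost without EV day 0 replicate 2 or R219S day 0 replicate 3 at adjusted p up to 0.0814). At day 11 WT (0.894, 0.595 and 0.677 CPM) and FE255del (0.498, 0.674 and 0.921 CPM) were below EV by -1.48 and -1.55 on the log2 scale (adjusted p = 3.18e-07 and 1.4e-07), while R219S, with 2.19, 3.03 and 2.88 CPM, overlapped EV (log2 0.41, adjusted p = 0.084). WT was below EV at day 0 as well (log2 -1.399), so that its change to day 11 was close to that of EV (log2 -0.08, adjusted p = 0.909), which was not so for FE255del (log2 -1.34, adjusted p = 0.000216).

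Egf, the founding ligand, was barely transcribed, with 33 to 185 counts in a library. It was the ligand with higher values in WT at day 1, at 2.302, 1.498 and 1.999 CPM against 1.05, 0.772 and 0.949 CPM in EV (log2 1.07, SE 0.26, adjusted p = 0.000564). FE255del and R219S overlapped EV at that time (log2 -0.09 and -0.14). WT was also higher at day 0 (log2 0.91, adjusted p = 0.0139, lost without EV day 0 replicate 1 or WT day 0 replicate 1 at adjusted p up to 0.0888), and no change since day 0 beside that of EV passed for Egf with any construct. Antisense genes share 607 and 500 bases of Egf exons (Gm42697 and 6330410L21Rik), and the strand setting of the counting is not stated, so part of these few counts may belong to them.

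Egfr, the receptor of the ligands above, was lower than in EV at day 1 with each FOXA1 construct. EV libraries held 114, 111 and 103.5 CPM at day 1, WT 42.8, 47.7 and 41.6 CPM, FE255del 40.6, 39.8 and 41.0 CPM, and R219S 92.6, 92.3 and 88.5 CPM. Egfr was 2.49-fold lower than EV in WT (log2 -1.31, SE 0.08, adjusted p = 3.84e-16), 2.70-fold lower in FE255del (log2 -1.43, SE 0.08, adjusted p = 7.3e-17) and 1.20-fold lower in R219S (log2 -0.26, SE 0.07, adjusted p = 0.00321). FE255del against WT gave -0.12 (SE 0.08, adjusted p = 0.217), and R219S against WT gave 1.05 (SE 0.08, adjusted p = 1.13e-13). At day 0 no construct passed against EV for Egfr (log2 -0.11, -0.14 and -0.02).

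At day 11 Egfr stood higher in R219S, at 167, 186 and 147 CPM, than in EV, at 139, 131 and 128 CPM (log2 0.33, SE 0.07, adjusted p = 0.000554). WT, at 103.5, 99.3 and 105 CPM, and FE255del, at 83.1, 89.7 and 101 CPM, were below EV (log2 -0.37 and -0.54, adjusted p = 9.99e-05 and 2.98e-07). The direction of R219S against EV of the same day was thus opposite at days 1 and 11. At day 1 the change of Egfr in R219S since day 0 did not pass beside that of EV, with only its unadjusted p under 0.05. Beside the change of EV since day 0, the day 11 value of R219S was 0.35 (adjusted p = 0.00971, 0.0641 when the 4 groups were fitted alone).

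Erbb2, the partner receptor without a ligand, moved little in CPM except in R219S and WT at day 1. EV libraries held 169, 176 and 179 CPM, WT 139, 138 and 135 CPM, FE255del 178, 184 and 182 CPM, and R219S 111, 105 and 110.2 CPM. R219S was 1.61-fold lower than EV (log2 -0.69, SE 0.04, adjusted p = 8.61e-18) and WT 1.27-fold lower (log2 -0.35, SE 0.04, adjusted p = 1.69e-10), while FE255del overlapped EV (log2 0.05, adjusted p = 0.236). This order differs from that of Egfr, in which FE255del was low and R219S nearer to EV. By day 11 the groups lay between 184 and 217 CPM, and R219S was lower than EV by 0.13 (log2 -0.13, adjusted p = 0.00527), a call lost without EV day 11 replicate 3 or with the 2 groups fitted alone (adjusted p up to 0.167).

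Erbb3, the neuregulin receptor, was lower than EV with all FOXA1 constructs at day 1. EV held 173.5, 169.7 and 168 CPM, WT 136, 141 and 125 CPM, FE255del 126.5, 125 and 124 CPM, and R219S 118, 113 and 113 CPM. The log2 differences were -0.35, -0.44 and -0.57 (SE 0.06 for each, adjusted p = 4.75e-06, 7.2e-08 and 4.01e-10), and the 3 groups did not overlap EV. At day 11 they were smaller (-0.20, -0.17 and -0.30), and the calls of WT and FE255del were lost when only the compared groups were fitted, without EV day 11 replicate 1, and without WT day 11 replicate 2 or FE255del day 11 replicate 1 or 2 (adjusted p up to 0.062 in WT and 0.133 in FE255del). At day 0 FE255del was lower (log2 -0.28, adjusted p = 0.000755) and R219S barely so (log2 -0.16, adjusted p = 0.0491, up to 0.257 when a library was left out or the fit was changed). Beside the change of EV since day 0, Erbb3 at day 1 passed only in R219S (log2 -0.41, adjusted p = 0.000138). In WT only its unadjusted p was under 0.05, and in FE255del neither was.

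**Figure D2:**
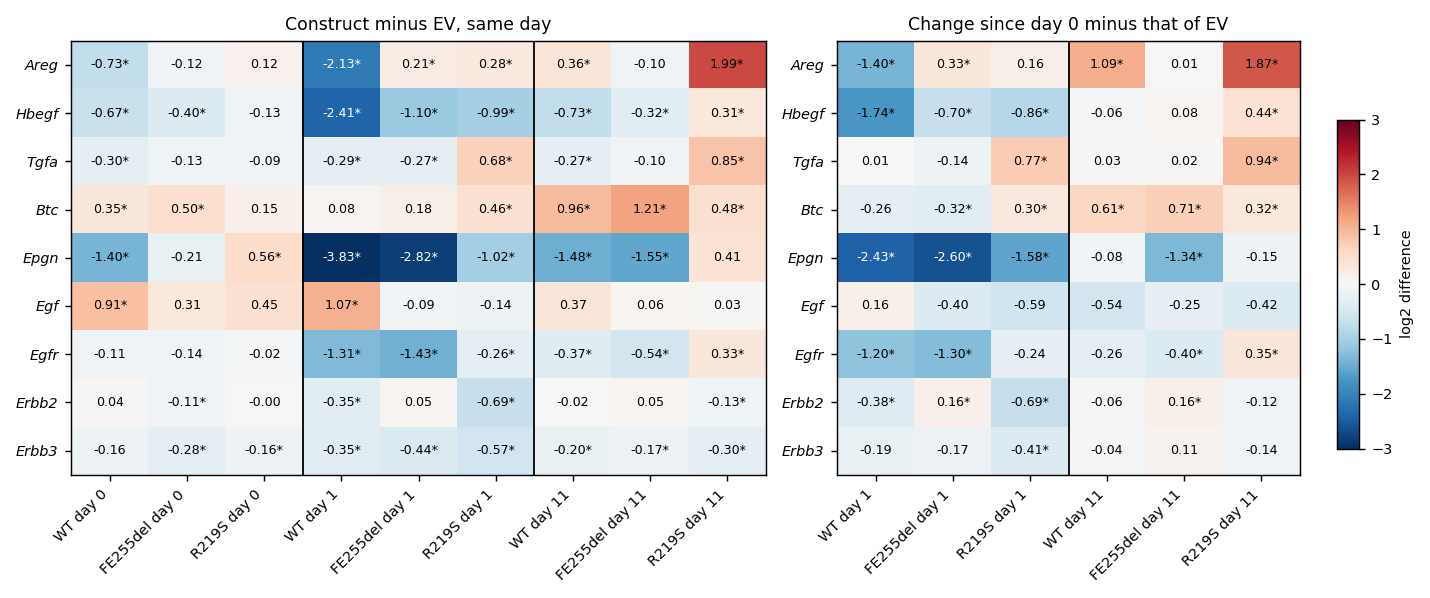
Log2 differences for 9 EGF family genes (rows), of each construct against EV on the same day (left) and of the change since day 0 against that of EV (right); colour runs from -3 to 3, darker blue marks lower values down to -3.83, and an asterisk marks an adjusted p under 0.05. The day 1 columns hold the largest negative values, and the R219S day 11 column is mostly positive for the ligands.

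By count, each construct had more family genes past the threshold against EV at day 1 than at days 0 or 11, and more of all genes as well. Against EV at day 1, 8 of the 9 tested genes passed in WT (1 higher, 7 lower), where 60.5% of all tested genes passed, 29.6% as higher and 30.9% as lower. In FE255del 6 passed (1 higher, 5 lower), beside 53.2% of all genes (25.5% higher, 27.7% lower). In R219S 8 passed (3 higher, 5 lower), beside 48.5% (23.2% higher, 25.3% lower). At day 11, 7 passed in WT (2 higher, 5 lower), beside 40.6% of all genes (21% and 19.7%), 5 in FE255del (1 higher, 4 lower), beside 42.2% (22.6% and 19.6%), and 7 in R219S (5 higher, 2 lower), beside 32.1% (17.7% and 14.4%). At day 0 already, 6 passed in WT (2 higher, 4 lower), beside 22.7% (9.90% and 12.8%), 4 in FE255del (1 higher, 3 lower), beside 20.8% (11.1% and 9.72%), and 2 in R219S (1 higher, 1 lower), beside 20.1% (13.2% and 6.92%).

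Because the constructs differed at day 0, the change since day 0 was set beside that of EV. At day 1 it passed for 5 genes in WT, all lower, beside 44.0% of all genes (20.2% higher, 23.8% lower). It passed for 6 in FE255del (2 higher, 4 lower), beside 40.2% (17.4% and 22.9%), and for 6 in R219S (2 higher, 4 lower), beside 39.3% (16.1% and 23.3%). Hbegf and Epgn were lower by this measure with all 3 constructs. At day 11 it passed for Areg and Btc in WT, both higher, beside 21.4% of all genes (10.9% and 10.5%), for 4 genes in FE255del (2 higher, 2 lower), beside 20.5% (9.44% and 11.1%), and for 5 in R219S, all higher (Areg, Hbegf, Tgfa, Btc and Egfr), beside 27.1% (12.4% and 14.7%). Set beside the change of WT instead, a comparison added after the values were seen, 3 genes passed in FE255del at day 1, all higher, beside 21.3% (9.95% and 11.3%), and 8 in R219S (6 higher, 2 lower), beside 39.9% (19.3% and 20.6%). At day 11 the counts were 3 in FE255del (1 higher, 2 lower), beside 14.3% (6.70% and 7.6%), and 5 in R219S (4 higher, 1 lower), beside 40.0% (18.5% and 21.4%).

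The control construct changed with time as well. Between day 0 and day 1 of EV, 0 of 9 passed by edgeR, 4 had an unadjusted p under 0.05 (Areg, Hbegf, Tgfa and Epgn, all lower) and 0 passed by DESeq2, beside 1.43% of all genes passing (0.259% higher, 1.17% lower). Between day 0 and day 11 all 9 tested genes passed, beside 47.6% of all genes (23.1% higher, 24.6% lower). The ligands Areg (log2 -0.96), Hbegf (-0.64), Tgfa (-0.34), Btc (-0.25) and Epgn (-2.06) fell, while Egf (1.21) and the receptors Egfr (0.26), Erbb2 (0.26) and Erbb3 (0.16) rose. The day 11 libraries of EV held 9118 to 9944 CPM of the basal list, against 7489 to 7659 CPM at day 0. The luminal keratins Krt8, Krt18 and Krt19 were lower (log2 -0.53, -0.60 and -0.68) and Cd24a higher (log2 0.40); the part of these shifts in the result was not tested. The Btc call was lost without EV day 11 replicate 1 (adjusted p = 0.0929), and that of Erbb3 without EV day 0 replicate 2 or 3 or EV day 11 replicate 1 (up to 0.174).

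The summed basal list, in which Krt5 and Krt14 have the highest CPM, moved in the same libraries as Egfr and several ligands. At day 1 the summed basal list was 7666 to 8420 CPM in EV, 4867 to 5007 in R219S, 2900 to 3032 in WT and 1656 to 1760 in FE255del. Egfr and Hbegf were also lower than EV in these groups, but Hbegf and Epgn were lowest in WT and not in FE255del, and Areg in FE255del was not below EV. At day 11 the basal sum was 10187 to 11214 CPM in R219S, 9118 to 9944 in EV, 4581 to 5594 in WT and 4881 to 5050 in FE255del, the same order of R219S and EV over the other 2 constructs that Egfr, Hbegf and Epgn showed. The summed fibroblast and smooth muscle list was 63.4 to 79.96 CPM in R219S at day 11 against 17.6 to 31.7 in EV and 41.3 to 43.7 in WT, led by Dcn and Acta2, while Col1a2 was at 0 in 35 of 36 libraries and Des in 23. The basal genes did not all move alike: Krt15 at day 11 was higher than EV in WT and FE255del (log2 0.35 and 0.30) and lower in R219S (log2 -0.29), and at day 1 Trp63 and Itga6 did not pass in R219S (log2 0.12 and -0.11, adjusted p = 0.133 and 0.242). Of luminal genes in R219S at day 1, Cd24a was higher than EV (3501 against 675.5 CPM, log2 2.37), while Krt8, Krt18 and Krt19 were lower (log2 -0.76, -0.66 and -0.77). The part of these marker shifts in the results on the family was not tested.

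Setting the variants against WT directly compares FOXA1 constructs that share the DsRED part. The Foxa1 level itself, however, was lower at day 1 in FE255del (log2 -0.37, adjusted p = 3.86e-06) and R219S (log2 -0.42, adjusted p = 1.59e-07) than in WT. At day 11 neither variant passed (log2 0.14 and -0.00, adjusted p = 0.124 and 0.997). These Foxa1 counts do not measure the construct alone, and the part of the Foxa1 level in these differences was not tested. At day 1, FE255del differed from WT in 5 of 9 genes (4 higher, 1 lower; 41.7% of all genes passed, 21.8% higher and 19.9% lower) and R219S in 9 of 9 (6 higher, 3 lower; 59.6%, 30.5% and 29.1%). Areg was 5.08-fold higher in FE255del (log2 2.34, SE 0.10, adjusted p = 3.33e-19) and 5.34-fold higher in R219S (log2 2.42, SE 0.10, adjusted p = 1.23e-20). Hbegf was 2.47-fold and 2.66-fold higher (log2 1.30 and 1.41, adjusted p = 1.74e-14 and 3.37e-16), and Epgn 2.02-fold and 7.01-fold higher (log2 1.01 and 2.81, adjusted p = 0.000638 and 1.1e-13). Egf was lower in both variants (log2 -1.16 and -1.21, adjusted p = 0.00041 and 0.000145), and Erbb2 was higher in FE255del (log2 0.40) but lower in R219S (log2 -0.34).

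At day 11 R219S differed from WT in 7 of 9 genes (5 higher, 2 lower; 48.9%, 24.7% and 24.1%), with Areg 3.10-fold, Epgn 3.70-fold, Tgfa 2.17-fold and Hbegf 2.05-fold higher (adjusted p = 1.07e-16, 9.49e-10, 7.54e-19 and 3.76e-13), Egfr higher (log2 0.70) and Btc lower (log2 -0.48). FE255del differed from WT in 4 of 9 genes at that time (3 higher, 1 lower), beside 17.7% of all genes (9.75% higher, 7.92% lower). FE255del had less Areg than WT at this time (log2 -0.46, adjusted p = 0.000427), the reverse of day 1, and Hbegf was higher (log2 0.41, adjusted p = 0.00023). The smaller calls for Tgfa (0.17) and Btc (0.25) were lost when only the compared groups were fitted and without WT day 11 replicate 1 or 2 or FE255del day 11 replicate 2 or 3 (adjusted p up to 0.146 and 0.13).

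**Figure D3:**
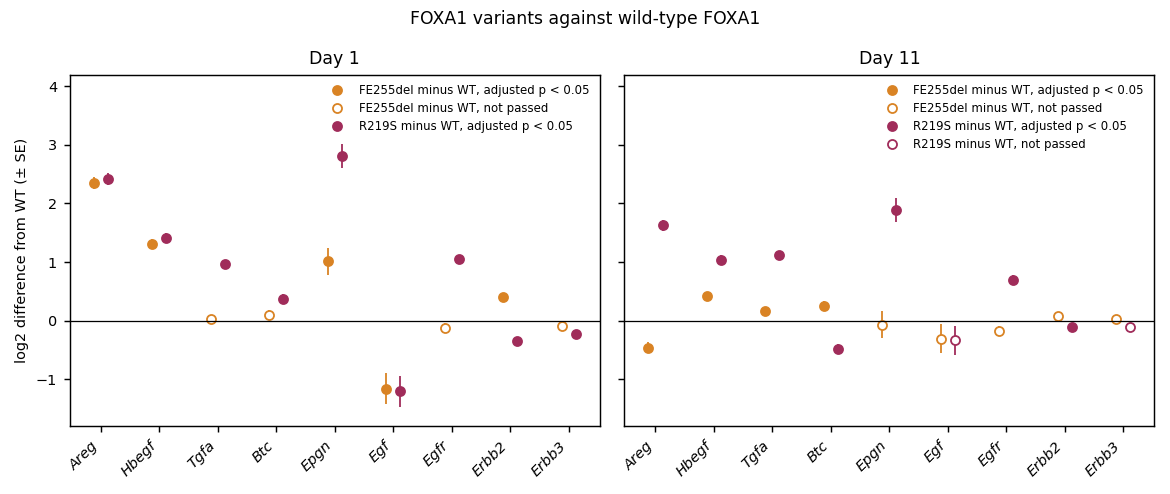
Log2 difference of FE255del and R219S from WT (vertical axis, with SE) for 9 EGF family genes at days 1 and 11; filled points have an adjusted p under 0.05 and open points do not. At day 1 Areg and Hbegf lie well above 0 in both variants, and at day 11 R219S has Areg, Hbegf, Tgfa and Epgn at 1.04 to 1.89.

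The genes that act around the family were described through 5 lists. Among the related ligands and receptor, Nrg1 and Nrg2 encode neuregulins, which bind ERBB3 and ERBB4. Nrg1 was lower than EV at day 1 in WT (1.19 against 5.37 CPM, log2 -2.17) and FE255del (1.72 CPM, log2 -1.64), and so was Nrg2 (0.172 and 0.0871 against 1.58 CPM, log2 -3.20 and -4.17), while both were higher in R219S (6.60 and 2.90 CPM, log2 0.30 and 0.87). Nrg4 stayed at or below 0.428 CPM in its group means, and Nrg3 and Erbb4 had too few counts to be tested.

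Genes that act on ligand release were mixed in R219S and mostly lower in WT at day 1. The list includes Timp3, an inhibitor, which is counted below as lower in WT and as higher in FE255del and R219S. Of 7 tested, 1 was higher and 5 lower in WT, 2 and 4 in FE255del, and 3 and 4 in R219S; 29.6% of all genes were higher and 30.9% lower in WT, 25.5% and 27.7% in FE255del, and 23.2% and 25.3% in R219S. Frmd8, which stabilises the iRhom-ADAM17 complex, was lower in all 3 (log2 -1.05, -0.92 and -0.63), as was Rhbdf2, which encodes an iRhom (log2 -0.65, -0.41 and -0.52). Part of the Frmd8 gap was a rise in EV itself, from 72.7 CPM at day 0 to 95.0 at day 1. Over the same time Frmd8 fell from 66.6 to 46.0 CPM in WT, 68.9 to 50.3 in FE255del and 75.4 to 61.2 in R219S. Adam10, a protease that sheds betacellulin and EGF, was higher in R219S (690.3 against 301 CPM, log2 1.20, adjusted p = 1.09e-19). Timp3, an inhibitor of ADAM17 and other metalloproteases, spread widest: 79.7 CPM in EV, 14.6 in WT (log2 -2.45), 135 in FE255del (log2 0.76, adjusted p = 8.15e-05) and 885 in R219S (log2 3.47, adjusted p = 4.19e-16).

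Of 12 genes that restrain the receptors, 3 were higher and 5 lower in WT at day 1, 4 and 6 in FE255del, and 5 and 4 in R219S, beside the shares of all genes (29.6% higher and 30.9% lower in WT, 25.5% and 27.7% in FE255del, 23.2% and 25.3% in R219S). Lrig1, which promotes loss of EGFR protein, was higher in WT (99.8 against 54.4 CPM, log2 0.87, adjusted p = 4.75e-16) and FE255del (log2 0.54). It was already higher at day 0 (log2 0.56 and 0.49), and its change beside that of EV was 0.31 in WT (adjusted p = 0.00099) and 0.05 in FE255del (adjusted p = 0.687). Sh3kbp1, an adaptor of receptor uptake, was lower in both constructs at day 1 (log2 -1.56 and -1.44). It was already lower at day 0, at 88.2 CPM in WT and 88.5 in FE255del against 117 in EV. Errfi1, an inhibitor of the EGFR kinase, was lower in R219S (47.8 against 72.1 CPM, log2 -0.59, adjusted p = 2.39e-13). Of 23 genes of the signal relay, 4 were higher and 13 lower in WT, 2 and 10 in FE255del, and 8 and 6 in R219S, beside the same shares of all genes. Shc1, an adaptor that docks on the receptors, was lower in all 3 (log2 -0.71, -0.60 and -0.53). With total-count scaling the relay counts became 6 higher and 10 lower in WT, 5 and 8 in FE255del, and 8 and 4 in R219S. In WT and in FE255del, 1 relay gene that had passed changed sign. The median of the relay list in FE255del went from -0.09 to 0.01 with this scaling, while that of all genes went from -0.03 to 0.07.

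Genes known to follow ERK activity were mostly lower than EV at day 1 with WT and FE255del. Of 17 tested, 1 was higher and 14 lower in WT at day 1 (median log2 difference -0.75, against -0.01 over all genes), and 1 was higher and 13 lower in FE255del (median -0.65, against -0.03). In R219S 6 were higher and 6 lower (median 0.07, against -0.04), or 8 and 6 with total-count scaling. Of all genes, 29.6% were higher and 30.9% lower in WT, 25.5% and 27.7% in FE255del, and 23.2% and 25.3% in R219S. Etv5, a transcription factor induced by ERK, was at 36.4 CPM in EV, 18.2 in WT (log2 -1.002) and 64.7 in R219S (log2 0.83, adjusted p = 1.64e-16). At day 0 Etv5 was at 33.0 CPM in EV, 47.6 in WT and 37.7 in R219S. Dusp6, the ERK phosphatase, was at 155 CPM in EV and 309 in R219S (log2 0.99, adjusted p = 6.9e-17).

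Not all of these genes went with Etv5 and Dusp6. Ccnd1, a cyclin of the G1 phase, was lower than EV at day 1 with each construct (log2 -1.02 for WT, -1.17 for FE255del and -0.57 for R219S). Ier3, an immediate early gene, was lower in WT and FE255del (log2 -1.87 and -1.38), where Etv5 and Dusp6 were also below EV. In R219S, where Etv5 and Dusp6 were above EV, Ier3 was at 169 CPM against 209 in EV. Against WT directly, 14 of the 17 were higher and 1 lower in R219S at day 1 (median 0.73, against -0.01 over all genes), beside 30.5% of all genes higher and 29.1% lower, with Etv5 at 1.83, Dusp6 at 1.77, Etv4 at 1.34 and Ier3 at 1.57. At day 11, 6 were higher and 2 lower in R219S against EV (median 0.10), with Phlda1 at 0.47 and Dusp6 at 0.50 (5 and 4 with total-count scaling), beside 17.7% and 14.4% of all genes. In FE255del 4 were higher and 8 lower (median -0.26), beside 22.6% and 19.6%, and in WT 5 and 7 (median -0.12), beside 21% and 19.7%.

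**Figure D4:**
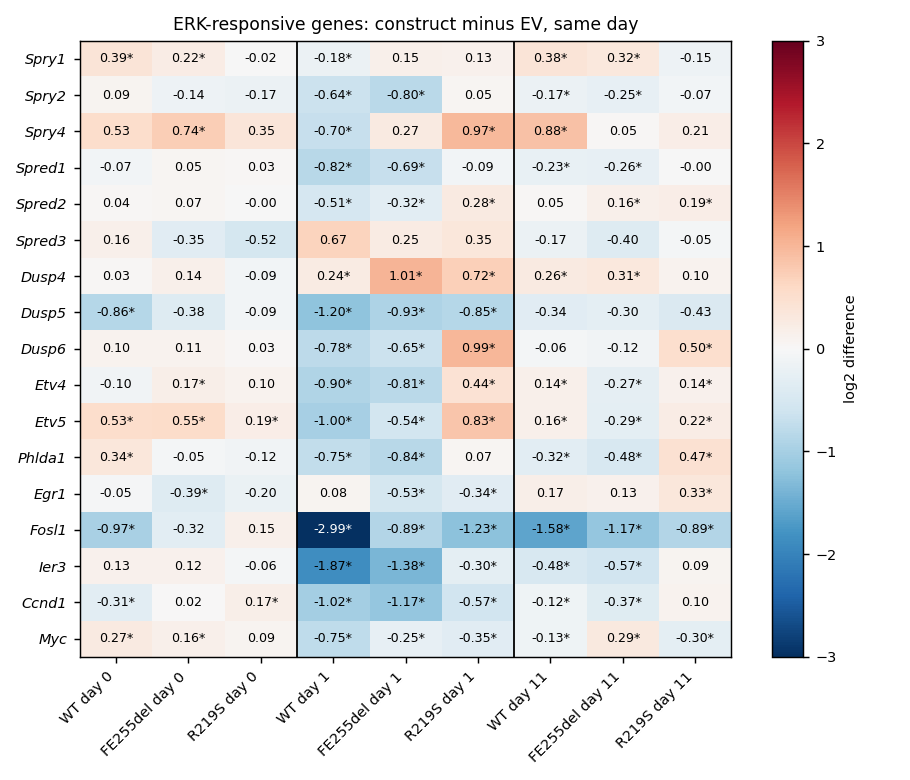
Log2 difference from EV of the same day for 17 genes that follow ERK activity (rows) with WT, FE255del and R219S at days 0, 1 and 11; colour runs from -3 to 3 and an asterisk marks an adjusted p under 0.05. In the day 1 columns WT and FE255del are mostly negative, and R219S holds positive values for Dusp6, Etv4 and Etv5, among others, beside negative ones such as Ccnd1.

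The genes with the pattern most like each member were sought over the 12 group means of log2 CPM among 11129 genes, as a description without a test. For Egfr these were Inka1 (r = 0.993), Icam1 (0.989) and Susd6 (0.984), for Epgn Dynap (0.989), Bcl2l15 (0.989) and Lnpk (0.988), and for Hbegf Ttc39b (0.983), Map7d1 (0.977) and Traf2 (0.976). Tgfa was most like Rab11a (0.982), Tslp (0.967) and Ifi209 (0.965). For Areg the closest genes reached only 0.882 (Mfsd14b), 0.866 (Yars) and 0.859 (Arhgap22), the lowest first value of the 9 members. Among the members themselves, over the same 12 means, Hbegf and Epgn had r = 0.83, Erbb2 and Erbb3 0.80, Hbegf and Egfr 0.75 and Areg and Hbegf 0.71. On the stretch of chromosome 5, Areg and Epgn had 0.60, Areg and Btc -0.01 and Btc and Epgn -0.32. All values in a group come from the same 3 libraries.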

How the data were processed

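Libraries of polyadenylated RNA were made with a stranded kit, per the labels' protocols. The submitters' processing notes name STAR 2.4.2a, featureCounts 1.4.3 and mm10 without their roles; annotation release and strand setting are not given in the sources used here. The authors deposited estimated counts per gene, 1 table per library, which were rounded to whole numbers; 298311 were not written as whole, none farther than 3e-09 from one. Of counts from 1 to 20, 69.7% were even, as when both reads of a pair are counted, which is not stated. Of 45232 identifiers, 44585 matched a symbol.

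After filterByExpr (18176 genes) and TMM scaling (factors 0.938 to 1.08), edgeR 4.0.16 in R 4.3.3 fitted 1 robust quasi-likelihood model with 12 group means to all 36 libraries. The 21 planned comparisons and 4 added after the values were seen (changes since day 0 beside that of WT) were tested two-sided, with Benjamini-Hochberg adjustment within each. The SE is the absolute log2 difference divided by the square root of F. Alternatives were RLE and total-count scaling, no filter or a stricter one, a replicate block, only the compared groups, DESeq2 1.42.0 and leaving out each library. The procedure was tested on simulated data. RPKM used GENCODE M21 exon lengths, a release that may differ from the authors'. The rule named the 10 members in every comparison, Foxa1, at most the 4 genes of each list with the smallest p, and the 3 genes most like each member (mean of at least 2 CPM). Members and lists were chosen with earlier results of these data known. Replicates of a group were alike (Pearson r of at least 0.9923) but differed by more than counting noise alone gives (chi-square per degree of freedom of at least 4.02). Sequences of the proteins and of Hbegf were not used here. The summed level of luminal markers is not reported here. Same-numbered libraries deviated together (every correlation over 0.1) in 1 of 21 pairs of groups, R219S at days 0 and 11 (0.18 to 0.37).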

Additional observations from a re-analysis of the deposited data

Results flagged for a closer look

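These results stood out because a construct's change since day 0 differed from that of another construct by the test of the difference itself; values are log2 differences between the changes, with adjusted p from edgeR's quasi-likelihood test under 0.05. Of all genes, 44.0% passed this test for WT, 40.2% for FE255del and 39.3% for R219S beside EV at day 1, and 21.4%, 20.5% and 27.1% at day 11.

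Beside EV at day 1, WT changed by -1.400 for Areg, -1.74 for Hbegf, -2.43 for Epgn, -1.20 for Egfr and -0.38 for Erbb2. FE255del changed by 0.33 for Areg, -0.70 for Hbegf, -0.32 for Btc, -2.60 for Epgn, -1.30 for Egfr and 0.16 for Erbb2. R219S changed by -0.86 for Hbegf, 0.77 for Tgfa, 0.30 for Btc, -1.58 for Epgn, -0.69 for Erbb2 and -0.41 for Erbb3. The Areg and Btc calls of FE255del and the Btc call of R219S each failed in 6 to 10 of 20 other fits, with adjusted p up to 0.131, 0.165 and 0.0925.

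Beside EV at day 11, WT changed by 1.09 for Areg and 0.61 for Btc, and FE255del by 0.71 for Btc, -1.34 for Epgn, -0.40 for Egfr and 0.16 for Erbb2. R219S changed by 1.87 for Areg, 0.44 for Hbegf, 0.94 for Tgfa, 0.32 for Btc and 0.35 for Egfr. The Erbb2 call of FE255del and the Btc call of R219S failed in 4 and 8 of 20 other fits (adjusted p up to 0.0798 and 0.114).

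Beside WT, in comparisons added after the values were seen, 21.3% and 39.9% of all genes passed for FE255del and R219S at day 1 and 14.3% and 40.0% at day 11. At day 1 FE255del differed by 1.73 for Areg, 1.03 for Hbegf and 0.54 for Erbb2, and R219S by 1.57 for Areg, 0.87 for Hbegf, 0.76 for Tgfa, 0.57 for Btc, 0.85 for Epgn, 0.96 for Egfr, -0.30 for Erbb2 and -0.22 for Erbb3. At day 11 FE255del differed by -1.08 for Areg, -1.26 for Epgn and 0.22 for Erbb2, and R219S by 0.78 for Areg, 0.50 for Hbegf, 0.91 for Tgfa, -0.29 for Btc and 0.61 for Egfr. The Epgn call of R219S at day 1 failed without WT day 1 replicate 1 (adjusted p = 0.066), the Erbb3 call at day 1 in 10 of 20 other fits (up to 0.187) and the Btc call at day 11 in 13 of 20 (up to 0.122).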

How the results depend on the processing

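Over 225 results for single members (9 genes in 25 comparisons), 181 kept their direction where called and their side of the threshold under all alternatives run, and of 134 that passed, 111 did; none that passed changed sign. Of 3548 refitted values, 109 lost and 45 gained a call. Counts of members that moved by over 1.5 times were R219S against EV at day 0 (2 in the model of all groups; 1 with the replicate block of a number shared by all constructs, 1 with only the compared groups, 0 to 2 with 1 library left out, 0 without EV day 0 replicate 2 or R219S day 0 replicate 3), FE255del against WT at day 11 (4; 2 with only the compared groups, 2 to 4 with 1 library left out, 2 without WT day 11 replicate 1 or 2 or FE255del day 11 replicate 2), EV at day 1 against day 0 (0; 3 with only the compared groups) and the change of R219S beside EV at day 11 (5; 3 with only the compared groups). Counts of all genes moved for EV at day 1 against day 0 (260; 170 with the stricter filter, 671 with only the compared groups, 62 to 185 with 1 library left out), for R219S against EV at day 11 (5833; 3811) and FE255del against WT at day 11 (3213; 1722) with only the compared groups, and at day 0 against EV with 1 library left out, for FE255del (3777; 2509 to 3515) and R219S (3654; 2104 to 3526), both lowest without EV day 0 replicate 2.

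Total-count scaling moved the share of calls that were higher from 49.0% to 60.8% for WT and 48.0% to 61.0% for FE255del against EV at day 1, from 65.6% to 47.2% and 55.2% to 42.6% for R219S against EV at days 0 and 11, from 50.6% to 36.7% for R219S against WT at day 11, and from 45.9% to 57.6%, 43.1% to 59.5% and 40.9% to 54.9% for the changes of WT, FE255del and R219S beside EV at day 1; the median of all genes shifted by 0.12 in the first and in the change of FE255del. The stricter filter moved the R219S day 0 share from 65.6% to 50.7%. Every correlation of same-numbered replicates was over 0.1 only in R219S at days 0 and 11, whose change beside EV kept 5 calls with the replicate block. FE255del at days 0 and 11 had a higher mean correlation (0.355, from 0.017 to 0.609) than R219S (0.244). Whether the numbers pair samples in other groups is thus not settled by this rule. The block by shared number ended 1 member call, Erbb3 in R219S against EV at day 0; blocked by construct and number, the counts of changes beside EV went from 6 to 7 in R219S at day 1 and from 2 to 3 in WT at day 11. Egf dropped out under the stricter filter. With 3 libraries a group, the spread is that between cultures, and values of Egf and Epgn rest on few counts.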
